A study of Mus musculus with 12 samples.

Results

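Complement transcripts were followed in RNA-seq libraries of mouse gingiva through 9 genes of 21965 in the count table. They were taken by name for their place in the pathway, by a rule that uses no measured value but was set with earlier results of these data known: the C1q chains C1qa, C1qb and C1qc, the components C3 and C4b, the alternative pathway genes Cfb and Cfp, and the anaphylatoxin receptors C3ar1 and C5ar1. All 9 passed the filter on low counts. The 12 libraries formed 4 groups of 3, from WT mice (C57BL/6 by the labels, C57BL/6J in the study's methods) and from mice labelled CybbKO, a label that stands for a knockout, in all cells, of Cybb, the gene for the catalytic subunit of the phagocyte oxidase Nox2. In each genotype, gingiva was taken from naive mice without a ligature or from mice 8 days after a ligature was tied around an upper molar, which retains bacteria and inflames the tissue. The labels give an age under 12 weeks, and the study's methods give another age range. The tissue was whole gingiva, so lower RNA per cell and fewer cells of a type cannot be told apart in any value below.

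Complement is a cascade of plasma and tissue proteins that tags particles for uptake and calls in phagocytes. C1q, which macrophages make, binds immune complexes and starts the classical pathway, in which C4 is cleaved. All routes meet at C3, and factor B (Cfb) with properdin (Cfp) amplifies C3 cleavage in the alternative pathway. Cleavage of C3 and C5 frees the small fragments C3a and C5a, the anaphylatoxins, which act through the receptors C3ar1 and C5ar1 on myeloid cells. In the periodontium, complement is known for its part in ligature-induced inflammation.

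The libraries held 27958819 to 42613423 reads counted on genes, and the factors of edgeR's TMM scaling ran from 0.918 to 1.08. Cybb was higher in libraries labelled CybbKO than in WT ones, although the label stands for a knockout. It stood at 5.06 ± 0.758 CPM (library-scaled counts, as edgeR's cpm gives them, SD, n = 3) in naive WT libraries and at 47.9 ± 7.56 CPM in naive libraries labelled CybbKO, and it was also the only gene of 15046 called by edgeR between the genotypes in either tissue. Whether this RNA came from the knockout allele was not tested. Genotypes are therefore given as labelled. If the labels were exchanged, every value below would belong to the other genotype and every difference between genotypes would turn. Y-linked genes had counts in every library, although the methods name mice of both sexes. The 9 epithelial markers summed to between 70783 and 129975 CPM. Of the 5 liver markers, Ttr was at 0 in all libraries, and the list summed to at most 26.9 CPM. In the ligated library labelled CybbKO replicate 2, the 5 adipocyte markers summed to 81.7 CPM, against 16.5 to 47.5 CPM in the other libraries.

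All 9 genes lie on the minus strand of GRCm38. The C1q chains sit side by side on chromosome 4, with C1qb (ENSMUSG00000036905) at chr4:136880129-136886187, C1qc (ENSMUSG00000036896) at chr4:136889804-136893065 and C1qa (ENSMUSG00000036887) at chr4:136895917-136898803. C4b (ENSMUSG00000073418, chr17:34728380-34743882) and Cfb (ENSMUSG00000090231, chr17:34856374-34862518) lie close together on chromosome 17, and C3 (ENSMUSG00000024164, chr17:57203970-57228136) lies farther along it. Cfp (ENSMUSG00000001128) is at chrX:20925454-20931555, C3ar1 (ENSMUSG00000040552) at chr6:122847138-122856161 and C5ar1 (ENSMUSG00000049130) at chr7:16246743-16259540. For 7 of the 9, no window of 75 bases in the transcripts was shared with another gene. C4b shared 22.7% of its windows with its near copy C4a, for which no row was found in the count table. Cfb shared 69.9% of its windows with the readthrough gene Gm20547, which had 0 counts in every library and covers 79.5% of the exon bases of Cfb. The levels of C4b and Cfb are therefore uncertain, since the counting could lose reads that fit both genes.

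The bases before the transcription start are shown for 4 genes whose levels are compared below: a pair of neighbouring C1q chains, C3 and C3ar1. They come from RefSeq on GRCm38.p6, whose table matched 6 of the 9 genes (C1qb, C1qc, C3, Cfp, C3ar1 and C5ar1) and not C1qa, C4b or Cfb. They are read 5′ to 3′ on the minus strand and stop before the RefSeq start or the GENCODE gene, whichever comes first, so that C1qc is cut to 99 bases. Capitals mark matches on either strand to the motifs named after them.
C1qb, chr4:136886201-136886450: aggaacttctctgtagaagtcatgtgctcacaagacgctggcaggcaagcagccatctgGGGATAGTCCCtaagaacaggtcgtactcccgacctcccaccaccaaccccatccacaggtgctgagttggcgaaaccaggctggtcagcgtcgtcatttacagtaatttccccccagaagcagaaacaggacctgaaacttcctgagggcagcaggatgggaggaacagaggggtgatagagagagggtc
C1qc, chr4:136893066-136893164: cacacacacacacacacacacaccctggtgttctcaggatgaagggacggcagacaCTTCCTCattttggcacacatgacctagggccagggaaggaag
C3, chr17:57228137-57228386: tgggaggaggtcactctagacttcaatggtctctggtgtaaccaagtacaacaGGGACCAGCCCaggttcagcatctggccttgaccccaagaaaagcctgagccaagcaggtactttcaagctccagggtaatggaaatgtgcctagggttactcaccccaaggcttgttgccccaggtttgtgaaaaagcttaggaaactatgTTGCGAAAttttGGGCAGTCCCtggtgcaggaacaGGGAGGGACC
C3ar1, chr6:122856162-122856407: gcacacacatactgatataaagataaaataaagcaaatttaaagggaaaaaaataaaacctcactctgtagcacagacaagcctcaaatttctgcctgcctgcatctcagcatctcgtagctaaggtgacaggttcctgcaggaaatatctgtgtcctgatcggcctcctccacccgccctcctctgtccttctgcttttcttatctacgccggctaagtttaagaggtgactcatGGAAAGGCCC

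In all, 5 motifs were searched on both strands in the 250 bases before each RefSeq start, and matches could overlap. The NF-kB pattern, GGG and CC with 5 bases of any kind between, was found in 5 of the 6 member promoters and in 45.8% of all 32851 promoters. In C1qb, C1qc and C3, matches on opposite strands overlapped. Those of C1qc, between -41 and -31 from the RefSeq start, lie within the GENCODE gene and so are not in the stretch printed. The PU.1 pattern GAGGAAG was found in 1 of the 6, C1qc, where it reads CTTCCTC on the printed strand, and in 10.6% of all promoters. The C/EBP pattern TTGCNNAA was found in 1 of the 6, C3, and in 9.56% of all promoters. The GAS pattern TTCNNNGAA and the ISRE pattern, GAAA and GAAA with 2 bases of any kind between, were in 0 of the 6, against 7.02% and 2.98% of all promoters. A match is only a run of letters and was not tested as a binding site.

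The ligature response of the C1q chains was compared first. In WT gingiva C1qb stood at 8.50, 8.35 and 12.3 CPM in naive replicates 1 to 3 and at 11.9, 18.5 and 13.4 CPM in ligated ones. The groups overlapped, because naive replicate 3 was above ligated replicate 1, and the log2 fold change of 0.59 (SE 0.21) had an adjusted p of 0.138 in edgeR. In libraries labelled CybbKO, C1qb stood at 7.94, 6.44 and 7.96 CPM in naive and at 22.01, 25.1 and 20.7 CPM in ligated tissue. Every ligated library was above every naive one, and C1qb rose 3.03-fold (log2 1.60, SE 0.21, adjusted p = 0.00207 in edgeR).

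C1qa and C1qc, the other chains of the same protein, followed C1qb. C1qa stood at 5.54, 6.45 and 9.08 CPM in naive and 8.39, 13.3 and 8.93 CPM in ligated WT libraries, which overlapped. Its values in libraries labelled CybbKO were 6.06, 4.52 and 6.95 CPM in naive and 15.8, 16.7 and 15.2 CPM in ligated tissue, with no overlap, and rose 2.72-fold (adjusted p = 0.00405 in edgeR). C1qc stood at 4.23, 5.79 and 8.86 CPM against 6.77, 11.6 and 8.07 CPM in WT, again with an overlap, and at 5.54, 4.33 and 4.94 CPM against 13.3, 14.5 and 12.3 CPM in libraries labelled CybbKO, where it rose 2.71-fold (adjusted p = 0.00677 in edgeR). Neither was called in WT, where the log2 fold changes were 0.54 for C1qa and 0.49 for C1qc. The 3 calls in libraries labelled CybbKO held when any 1 of the 6 libraries was left out, with adjusted p up to 0.0344.

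The C1q chains kept a narrow ratio. C1q is assembled from equal numbers of its A, B and C chains. The count of C1qa over that of C1qb ran from 0.652 to 0.874 over the 12 libraries, and that of C1qc over C1qb from 0.498 to 0.721. The SD of the log2 ratio was 0.11 for C1qa over C1qb and 0.15 for C1qc over C1qb, against 0.63 for C5ar1 over C3ar1 and 0.42 for C3 over C1qb.

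**Figure D1:**
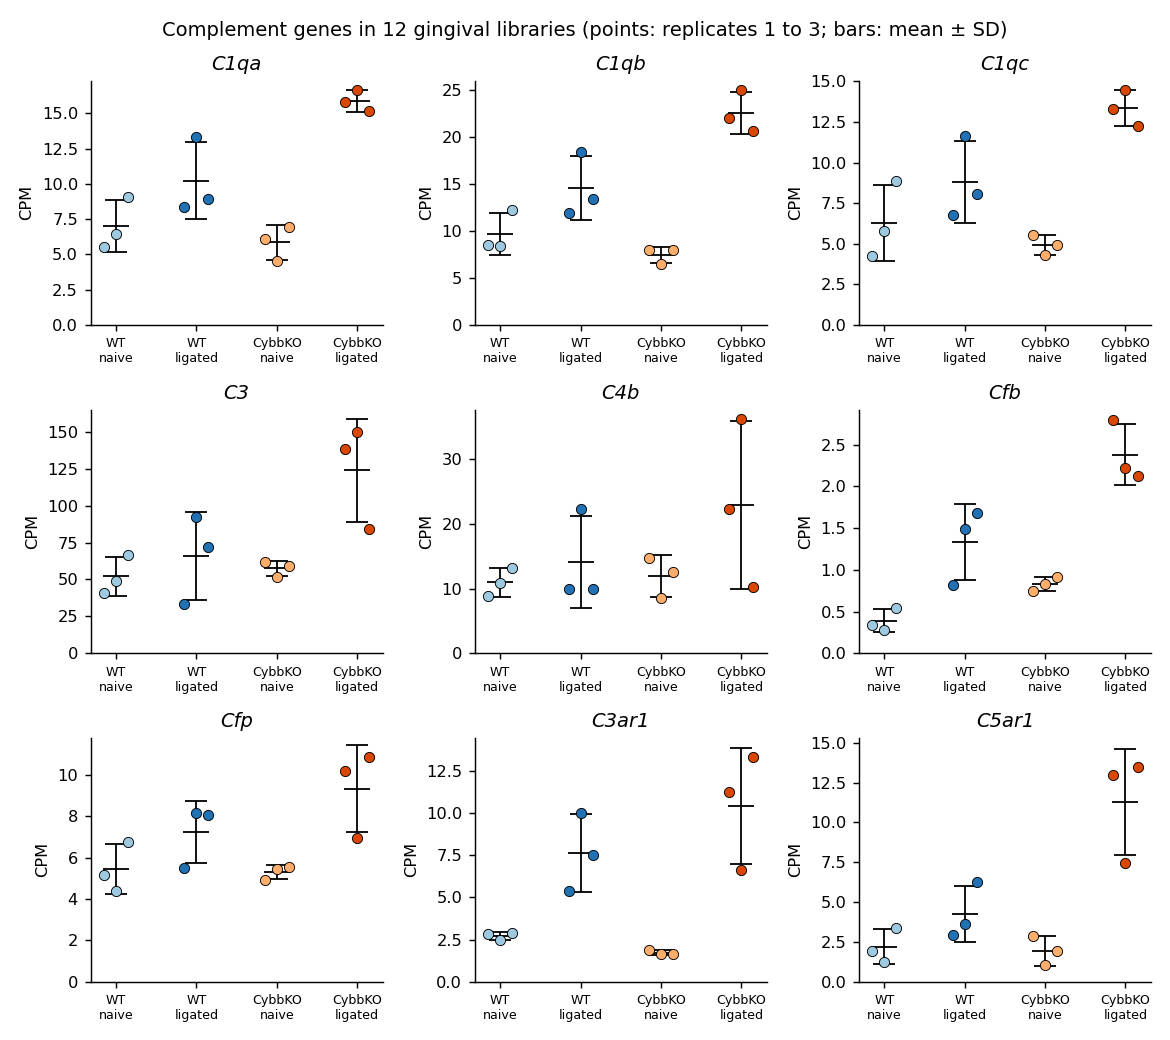
CPM (vertical axis, from 0, own scale per panel) of the 9 complement genes in the 4 groups. Points are the 3 libraries of a group in the order of replicates 1 to 3, and bars give the mean and SD. Except for C4b, every ligated library labelled CybbKO sits above every naive one; in WT that holds for Cfb and C3ar1.

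C3, the component on which all pathways converge, stood at 40.8, 49.2 and 66.4 CPM in naive and at 33.5, 92.0 and 72.0 CPM in ligated WT libraries. Ligated replicate 1 was below all 3 naive libraries, and the log2 fold change of 0.34 (SE 0.32) had an adjusted p of 0.602 in edgeR. C3 in libraries labelled CybbKO stood at 61.8, 51.6 and 59.1 CPM in naive and at 138, 150 and 84.4 CPM in ligated tissue. It rose 2.16-fold (log2 1.11, SE 0.33, adjusted p = 0.0437 in edgeR), and the groups did not overlap. That call was held without ligated replicate 3 and lost without any of the other 5 libraries, with adjusted p from 0.0839 to 0.141 in edgeR, and it was lost with the replicate number as a block (0.0658).

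C4b, whose product is cleaved by C1s, varied widely between libraries of a group. It stood at 8.80, 10.9 and 13.2 CPM in naive and 10.01, 22.3 and 9.99 CPM in ligated WT libraries. Its values in libraries labelled CybbKO were 14.8, 8.49 and 12.6 CPM in naive and 22.3, 36.2 and 10.2 CPM in ligated tissue. In both genotypes the groups overlapped and 1 ligated library, replicate 2, was the highest of all 6. C4b was the one gene of the 9 not called in libraries labelled CybbKO (log2 0.94, SE 0.43, adjusted p = 0.182 in edgeR), and its log2 fold change was 0.44 without ligated replicate 2. In WT it was 0.36 (SE 0.43), and -0.13 without ligated replicate 2. The ligated library labelled CybbKO replicate 2, which held the most C3 and C4b, is the one with the high adipocyte markers given above. Ligated WT replicate 2, with the most C3 and C4b of its group, had its group's lowest adipocyte sum, 23.2 CPM. Salivary markers peaked within each group in these same libraries, summing to 248 CPM in WT and 117 CPM in libraries labelled CybbKO. In naive libraries labelled CybbKO, replicate 1 had the most C3 and C4b and the lowest salivary sum, 16.2 CPM. The part of adipose or salivary tissue in these levels was not tested.

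Cfb, the protease of the alternative pathway convertase, had few reads, between 9 and 107 counts per library. In WT it stood at 0.335, 0.285 and 0.547 CPM in naive and at 0.821, 1.49 and 1.69 CPM in ligated libraries, with no overlap. It rose 3.43-fold (95% confidence interval 2.01 to 5.87, adjusted p = 0.0264 in edgeR). In libraries labelled CybbKO it stood at 0.750, 0.832 and 0.915 CPM in naive and at 2.79, 2.22 and 2.12 CPM in ligated tissue, and rose 2.85-fold (adjusted p = 0.0123 in edgeR). The naive libraries labelled CybbKO started above all naive WT ones. The WT call was lost without naive replicate 1 or 2 or ligated replicate 2 or 3 (adjusted p from 0.0828 to 0.126 in edgeR) and with only the 6 libraries compared (0.0799), and the other call without ligated replicate 1 (adjusted p = 0.0584).

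Cfp encodes properdin, which holds the alternative convertase together and is made by neutrophils and other leukocytes. It stood at 5.18, 4.36 and 6.74 CPM in naive and at 5.50, 8.16 and 8.04 CPM in ligated WT libraries, which overlapped. In libraries labelled CybbKO it stood at 4.91, 5.44 and 5.55 CPM in naive and at 10.2, 6.93 and 10.9 CPM in ligated tissue, without overlap. It rose 1.76-fold there (log2 0.82, SE 0.24, adjusted p = 0.0425 in edgeR), the smallest rise among the 8 called genes. This call was held without ligated replicate 2 and lost without any of the other 5 libraries, with adjusted p from 0.0951 to 0.164 in edgeR. It was also lost with only the 6 libraries compared (adjusted p = 0.0584) and with the replicate block (0.056).

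The anaphylatoxin receptors had the largest fold changes of the 9 genes in libraries labelled CybbKO. C3ar1, the receptor for C3a, stood at 2.83, 2.47 and 2.88 CPM in naive and at 5.38, 9.996 and 7.499 CPM in ligated WT libraries. All ligated values were above all naive ones, and C3ar1 rose 2.79-fold (95% confidence interval 1.81 to 4.31, adjusted p = 0.0243 in edgeR). The call was lost without naive replicate 1 or 2 or ligated replicate 2 or 3, with adjusted p from 0.0702 to 0.120 in edgeR. C3ar1 in libraries labelled CybbKO stood at 1.88, 1.66 and 1.62 CPM in naive and at 11.2, 6.61 and 13.3 CPM in ligated tissue. It rose 6.03-fold (95% confidence interval 3.85 to 9.45, adjusted p = 0.00185 in edgeR), and the call was held in all 6 fits that left out a library.

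C5ar1, the receptor through which C5a recruits neutrophils, stood at 1.95, 1.23 and 3.39 CPM in naive and at 2.91, 3.61 and 6.25 CPM in ligated WT libraries. Naive replicate 3 lay above ligated replicate 1, and the log2 fold change of 0.96 (SE 0.45) had an adjusted p of 0.262 in edgeR. C5ar1 in libraries labelled CybbKO stood at 2.89, 1.03 and 1.92 CPM in naive and at 12.95, 7.46 and 13.5 CPM in ligated tissue. The groups were far apart, and C5ar1 rose 5.80-fold (95% confidence interval 2.86 to 11.8, adjusted p = 0.00573 in edgeR), in all 6 fits that left out a library as well.

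By edgeR with Benjamini-Hochberg adjustment, 2 of the 9 genes were called higher in ligated WT tissue, where 2.31% of all genes tested were, and 8 of the 9 were called higher in ligated tissue labelled CybbKO, where 9.95% of all genes were. DESeq2 also called 2 and 8 of the 9 higher, against 5.66% and 12.0% of all genes. Without the ligated library labelled CybbKO replicate 2, which stood apart in adipocyte markers, the 8 became 7, and without replicate 1 of that group they became 5. The 2 in WT became 0 without naive replicate 1 or 2 or ligated replicate 2 or 3. Libraries did not overlap for 2 of the 9 genes in WT, against 13.3% of all genes higher without overlap, and for 8 of the 9 in libraries labelled CybbKO, against 18.5%. The median log2 fold change of the 9 was 0.54 in WT and 1.44 in libraries labelled CybbKO, and over all genes it was -0.03 in both. An exact two-sided permutation test on 1 gene gave p = 0.1, the smallest that 3 libraries against 3 allow, for each comparison without overlap.

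**Figure D2:**
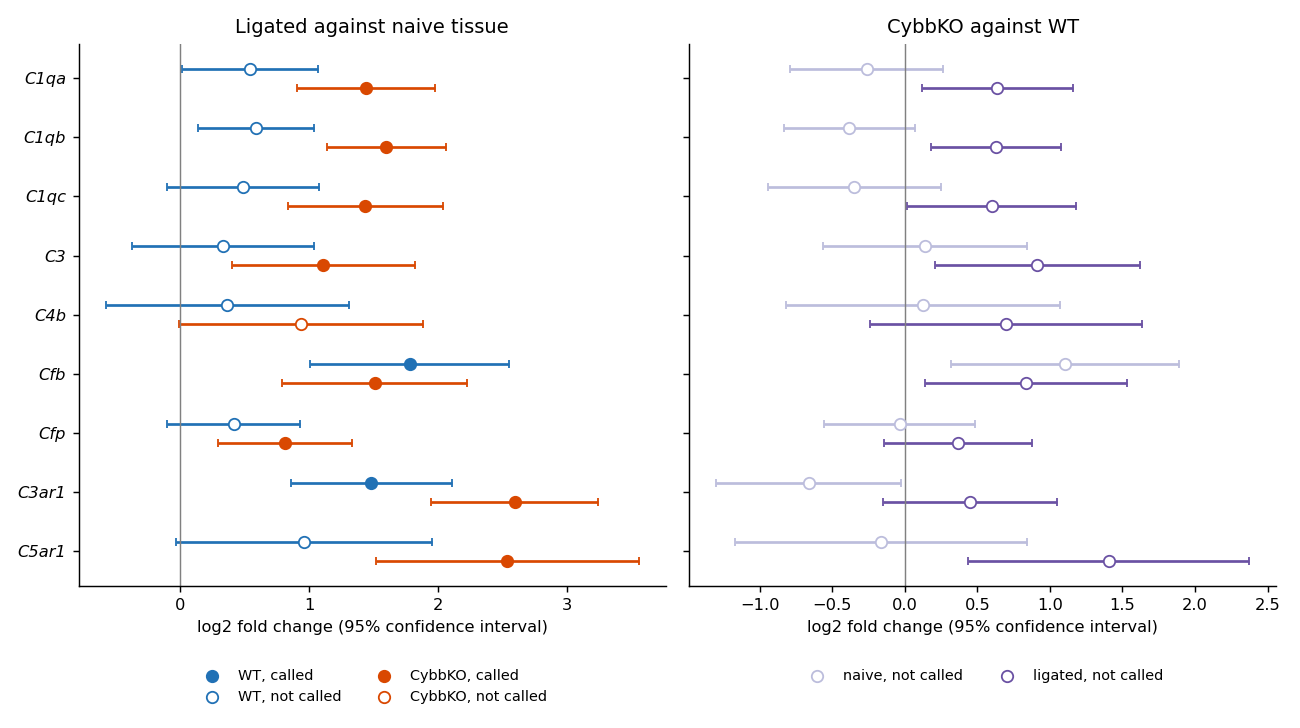
Log2 fold change (horizontal axis) of the 9 complement genes with its 95% confidence interval from edgeR, ligated against naive on the left and CybbKO against WT, as labelled, on the right. Filled points were called at an adjusted p under 0.05. On the left, 8 filled points are from libraries labelled CybbKO and 2 from WT; on the right, 0 points are filled.

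The question of genotype was then asked within ligated tissue. All 9 genes had higher means in ligated libraries labelled CybbKO than in ligated WT ones, against 53.4% of all genes, but edgeR called 0 of the 9 after adjustment. DESeq2 also called 0 of the 9, against 0.112% of all genes. In edgeR the 1 gene called was Cybb, which is 0.00665% of all genes, and it was not called with only the 6 libraries compared (adjusted p = 0.233) or without ligated WT replicate 3 (0.054). Without adjustment, 6 of the 9 had p under 0.05, against 2.87% of all genes in that direction. In the same comparison the neutrophil markers had 6 of 10 higher at an unadjusted p under 0.05 (9 of 10 with a log2 difference above 0, median 1.31) and the macrophage markers 3 of 12 (12 of 12 above 0, median 0.47), with 0 called by edgeR or DESeq2. At that p, adipocyte markers had 3 of 4 (4 of 4 above 0, median 3.72, 0 of 4 without overlap). T and NK cell markers had 1 of 5 (5 of 5 above 0, median 0.44) and fibroblast markers 0 of 8 (8 of 8 above 0, median 0.32). Again 0 of these were called by edgeR or DESeq2. The part of these cells in the members' values was not tested. The groups did not overlap for 5 of the 9, C1qa, C1qb, C1qc, Cfb and C5ar1, against 5.0% of all genes. C5ar1 differed most, with a log2 difference of 1.41 (95% confidence interval 0.44 to 2.38, unadjusted p = 0.00823 and adjusted p = 0.9999 in edgeR). For the C1q chains the differences were 0.64 for C1qa, 0.63 for C1qb and 0.60 for C1qc. Cfp had the smallest, at 0.37 with an interval of -0.15 to 0.88.

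In naive tissue the 9 genes did not lean one way. Again 0 of the 9 were called by edgeR, where Cybb was the 1 gene called, 0.00665% of all tested. DESeq2 called 0 of the 9, against 0.011% of all genes. Without adjustment, 1 of the 9 had p under 0.05 in each direction, against 2.03% of all genes in either. Cfb was higher in all 3 naive libraries labelled CybbKO than in all 3 WT ones, with a log2 difference of 1.10 (95% confidence interval 0.32 to 1.89, unadjusted p = 0.00998 in edgeR). C3ar1 and C1qb were lower without overlap, by log2 differences of -0.66 and -0.38. Among all genes, 2.08% were higher and 3.03% lower without overlap. In the same comparison 0 of 12 macrophage markers had a log2 difference above 0 (median -0.29, 3 lower without overlap). Fibroblast markers had 0 of 8 above 0 (median -0.53, 2 lower without overlap) and neutrophil markers 8 of 10 (median 0.70). The part of these cells was not tested. For C3, C4b, Cfp and C5ar1 the sign of the difference turned when 1 library was left out.

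The difference between the ligature responses of the genotypes was tested directly, as an interaction. EdgeR and DESeq2 called 0 of the 9 and 0.0% of all genes. Without adjustment, 5 of the 9 had p under 0.05 with a larger rise in libraries labelled CybbKO, against 1.79% of all genes. Macrophage markers had 6 of 12 at that p, with 12 of 12 differences above 0 and a median of 0.86, against a median of 0.90 for the members. Fibroblast markers had 0 of 8, with 8 of 8 above 0 and a median of 0.85. Neutrophil markers had 1 of 10, with 7 of 10 above 0 and a median of 0.68. Adipocyte markers had 2 of 4, with 3 of 4 above 0 and a median of 3.88. The 5 members were C1qb, with a log2 difference of 1.01, C1qa with 0.90, C1qc with 0.95, C3ar1 with 1.11 and C5ar1 with 1.57. The lowest p across these was 0.00478 for C1qb, unadjusted in edgeR. Cfb was the one with a smaller rise in libraries labelled CybbKO, by -0.27 (95% confidence interval -1.30 to 0.76). So a call in one genotype and not in the other is not shown to be a difference between them. These comparisons share libraries, so the values above are not independent of each other.

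Within groups, certain libraries stood high or low for many of the genes at once. Naive WT replicate 3 was the highest of its group for 9 of the 9 genes, and ligated WT replicate 1 was the lowest of its group for 8 of the 9. The ligated libraries labelled CybbKO split the genes. Replicate 2 was highest for the C1q chains, C3 and C4b and lowest for Cfp, C3ar1 and C5ar1, and replicate 3 was highest for the latter 3 genes.

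Levels of different genes were compared per kb of exon. C3 and C1qb led in every group, followed by C1qa, and Cfb, as counted, was lowest in every group without overlapping the gene above it. Its last place is uncertain, because reads that it shares with Gm20547 could be missing, and in naive libraries labelled CybbKO it stood at 0.295 against 0.399 CPM per kb for C3ar1. In naive WT libraries, C3 stood at 10.1 ± 2.54 CPM per kb (SD, n = 3), C1qb at 8.92 ± 2.05 and C1qa at 6.75 ± 1.76, and neighbours among these overlapped. Below a gap came C1qc and Cfp at 3.26 ± 1.22 and 3.13 ± 0.696 CPM per kb, which overlapped, then C4b at 1.92 ± 0.383. C5ar1 at 0.852 ± 0.427 and C3ar1 at 0.633 ± 0.0525 overlapped, and Cfb stood at 0.138 ± 0.0492. In ligated libraries labelled CybbKO, C5ar1 ranked above C4b, at 4.39 ± 1.29 against 4.02 ± 2.29 CPM per kb, with an overlap. C3 there was at 24.1 ± 6.77 and C1qb at 20.7 ± 2.08 CPM per kb, which also overlapped.

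**Figure D3:**
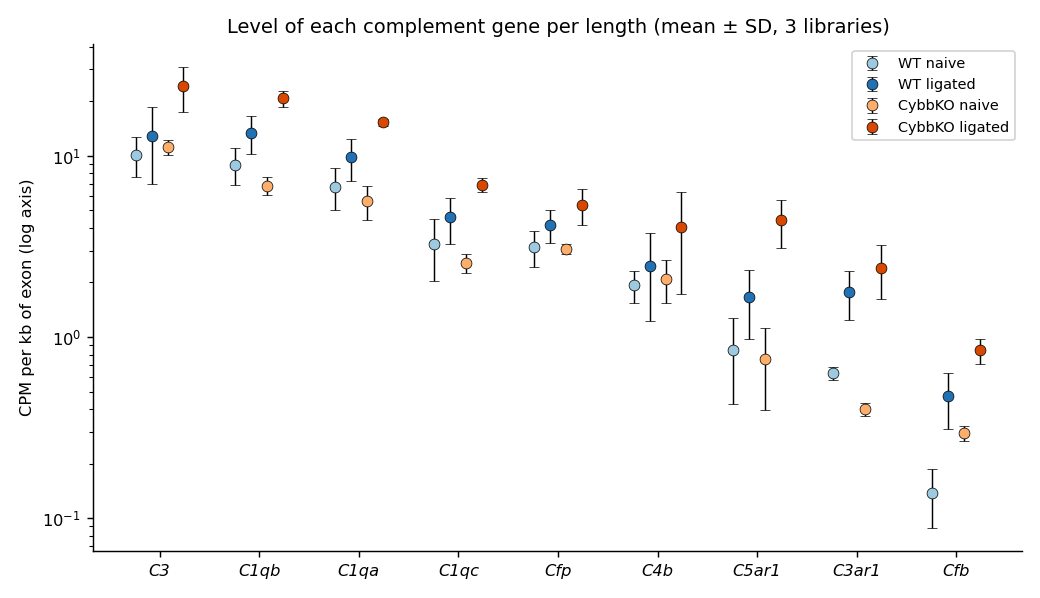
Level per length (CPM per kb of exon, log axis) of the 9 complement genes, as mean and SD of the 3 libraries of each group. C3, C1qb and C1qa stand highest in all 4 groups and Cfb lowest as counted, although reads it shares with Gm20547 could be missing.

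The genes whose pattern over the 12 libraries was most like each member were found from the root mean square difference of log2 CPM, each gene centred on its own mean. For the C1q chains they were the macrophage growth factor gene Csf1 and Unc93b1 (C1qa, 0.16 and 0.17), Gsdmd and Pld4 (C1qb, 0.19 and 0.21), and Gsdmd and Unc93b1 (C1qc, 0.18 and 0.18). The chains were closer to each other than to these, at 0.11 to 0.14. Cfp was nearest to Prkd1 (0.0989) and Ctps2 (0.13). C3ar1 was nearest to Ms4a7 (0.21), a macrophage membrane protein gene, and Prss35 (0.23), and C5ar1 to Pilrb2 and Pilra (both 0.24). C3 was nearest to Ccrl2 (0.30) and Ifitm3 (0.31), C4b to Siglec1 and Inpp5j (both 0.28), and Cfb, the least matched, to Prss41 (0.36) and Ackr1 (0.38). C3ar1 and C5ar1 were 0.60 apart.

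The rest of the pathway was taken from a list of 48 other complement genes, of which 47 were in the table and 28 were tested. In ligated WT tissue edgeR called 2 of the 28 higher and 1 lower, and in ligated tissue labelled CybbKO it called 12 higher and 1 lower. Over all genes, 2.31% were called higher and 0.884% lower in WT, and 9.95% higher and 3.04% lower in libraries labelled CybbKO. The median log2 fold change over the 28 was 0.30 in WT and 0.93 in libraries labelled CybbKO. Between genotypes, 0 of the 28 were called in ligated or naive tissue by edgeR or DESeq2. In ligated libraries labelled CybbKO, 7 of the 28 were higher at an unadjusted p under 0.05 in edgeR, against 2.87% of all genes. Cfd, whose high value came from 1 library as given below, was 1 of the 7. Libraries were higher without overlap for 4 of the 28, against 5.0% of all genes.

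Among 5 tested proteases of the classical and lectin pathways, 3 rose in libraries labelled CybbKO and 0 were called in WT. They were C1ra and C1s1, which encode the proteases bound to C1q, and Masp1, a lectin pathway protease. C1s1 was at 68.5 ± 4.61 CPM in naive and 173 ± 46.7 CPM in ligated libraries labelled CybbKO (log2 1.34, SE 0.21, adjusted p = 0.00324 in edgeR), and at 73.2 ± 7.31 and 123 ± 30.2 CPM in WT (log2 0.75, adjusted p = 0.0774 in edgeR, and 0.0223 in DESeq2). C1ra rose by 1.36 on the log2 scale and was called in all 6 fits that left out a library. Masp1 rose by 1.52, a call lost without naive replicate 2 or 3 or ligated replicate 1 (adjusted p from 0.0685 to 0.0785 in edgeR). C2, the other classical convertase protease, was not called, and 42.8% of its exon bases are shared with Gm20547. Of 2 tested lectin recognition genes, the scavenger collectin Colec12 rose by 1.57 (SE 0.30, adjusted p = 0.00693 in edgeR) in libraries labelled CybbKO.

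Soluble regulators restrain the cascade in the fluid phase. Of 5 tested, 3 were called higher in libraries labelled CybbKO and 0 in WT. Serping1, the C1 inhibitor, went from 88.4 ± 15.2 to 193 ± 51.4 CPM (log2 1.13, SE 0.23, adjusted p = 0.00871 in edgeR). Cpn1, a subunit of the carboxypeptidase that inactivates anaphylatoxins, rose by 1.16 on the log2 scale (adjusted p = 0.0413 in edgeR). That call was held without ligated replicate 2 and lost without any of the other 5 libraries (0.0808 to 0.184), with the replicate block (0.0516) and with only the 6 libraries compared (0.0528). Of 7 tested regulators bound to membranes, 0 were called in either genotype. Cr1l, the most abundant of them, had log2 fold changes of 0.13 (95% confidence interval -0.15 to 0.41) in WT and 0.23 (-0.05 to 0.51) in libraries labelled CybbKO.

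Of 6 other tested receptor genes, 2 rose in WT and 5 in libraries labelled CybbKO. Itgb2, the shared beta chain of complement receptors 3 and 4, rose by 1.07 (adjusted p = 0.0355 in edgeR) in WT and by 1.68 (adjusted p = 0.00224) in libraries labelled CybbKO. The WT call of Itgb2 was lost without naive replicate 1 or 2 or ligated replicate 2 or 3 (adjusted p from 0.0836 to 0.149 in edgeR) and with only the 6 libraries compared (0.0644). Itgam, the alpha chain of receptor 3, rose by 1.40 in the latter, and its WT value of 0.83 had an adjusted p of 0.0557 in edgeR. Cd93, an endothelial and myeloid protein once described as a C1q receptor, rose by 1.78 in WT and 2.10 in libraries labelled CybbKO, and its WT call was lost without naive replicate 1 or 2 or ligated replicate 3 (adjusted p from 0.0638 to 0.1001 in edgeR). C5ar2 and C1qbp are named after their values were seen. C5ar2, the second C5a receptor, rose by 1.08 in libraries labelled CybbKO, close to the threshold (adjusted p = 0.0497 in edgeR), and was not called without naive replicate 2 or 3 or ligated replicate 1 or 3 (0.136 to 0.182). Nor was it called with DESeq2's size factors in edgeR (adjusted p = 0.054), no filter on low counts (0.0585), only the 6 libraries compared (0.0992) or the replicate block (0.0683). C1qbp, a mostly mitochondrial protein that binds C1q, fell by 0.61 in WT and by 0.47 in libraries labelled CybbKO on the log2 scale. Both calls were lost when counts were scaled by library size alone (adjusted p = 0.0558 and 0.0671 in edgeR). The WT call was also lost without naive replicate 1 or 2 or ligated replicate 1 or 2 (0.0737 to 0.103) and with only the 6 libraries compared (0.0708), and the other without naive replicate 2 or 3 or ligated replicate 1 or 3 (0.0563 to 0.0874).

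The terminal pathway and the liver-made lectins were scarcely present as transcripts. In all, 19 of the 47 genes were too low to be tested. Hc, the gene for C5 from which the ligand of C5ar1 is cut, had 54 counts over the 12 libraries together. Mbl1 and Mbl2 had 1 and 0 counts. C8g, the tested terminal gene with the highest mean CPM, was at most at 0.393 CPM as a group mean and was not called. C7, the other tested terminal gene and named after its values were seen, had 2 to 19 counts per library and was lower in every ligated library than in every naive one in both genotypes. Its log2 fold changes were -1.46 in WT and -1.72 in libraries labelled CybbKO, with adjusted p of 0.230 and 0.116 in edgeR. Cfd, the protease that cleaves factor B and a product of fat cells, was at 15.7 CPM in the ligated library labelled CybbKO replicate 2 and at or below 2.81 CPM in all others. Its log2 fold change in libraries labelled CybbKO was 2.39 (SE 1.31, not called) with that library and -1.05 without it.

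**Figure D4:**
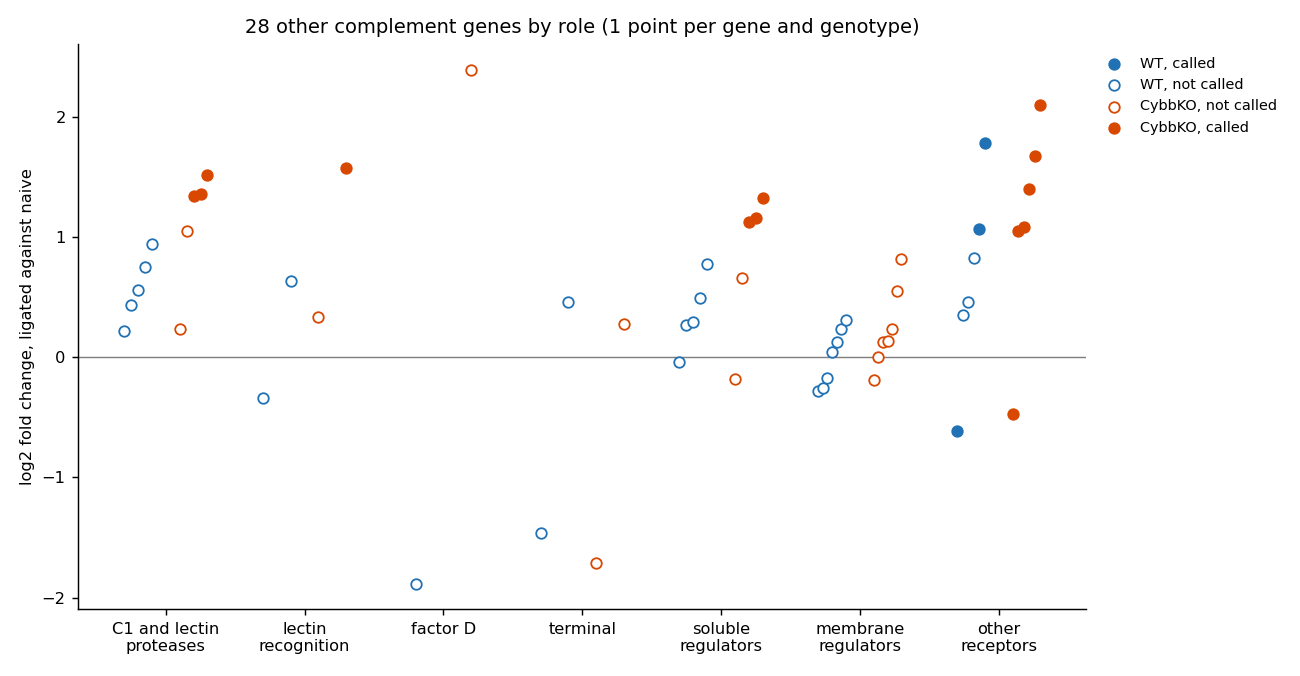
Log2 fold change, ligated against naive tissue (vertical axis), of the 28 other tested complement genes by role, with 1 point per gene and genotype as labelled. Filled points were called by edgeR at an adjusted p under 0.05. Filled points above 0 number 2 in WT and 12 in libraries labelled CybbKO, and 0 lie among the membrane regulators.

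Markers of myeloid, fibroblast and endothelial cells were also called higher in ligated tissue. Over all genes, edgeR called 2.31% higher in WT and 9.95% in libraries labelled CybbKO, and DESeq2 5.66% and 12.0%. Of 12 macrophage markers, edgeR called 3 higher in ligated WT tissue and 10 in ligated tissue labelled CybbKO, DESeq2 called 5 and 10, and 0 were at 0. Their summed level was 258 to 301 CPM in naive WT, 327 to 491 in ligated WT, 240 to 248 in naive and 393 to 628 CPM in ligated libraries labelled CybbKO. Of 10 neutrophil markers, edgeR called 1 and 8 higher and DESeq2 7 and 9, with median log2 fold changes of 2.09 and 2.84. They summed to 464 to 920 CPM, 1597 to 3941 CPM, 900 to 1020 CPM and 2966 to 11724 CPM in the same order of groups. In the ligated libraries labelled CybbKO, both sums were highest in replicate 3 and lowest in replicate 2, the order also seen for Cfp, C3ar1 and C5ar1. C1qa, C1qb, C1qc, C3 and C4b were instead highest in replicate 2 and lowest in replicate 3. The C1q chains together varied little there, at 51.1, 56.3 and 48.1 CPM in replicates 1 to 3. The macrophage sums of those replicates were 582, 393 and 628 CPM. In WT, the macrophage and C1q sums were both highest of their group in naive replicate 3, and both lowest in ligated replicate 1. In naive libraries labelled CybbKO, replicate 3 had the lowest macrophage sum and the highest C1q sum. Fibroblast markers, with 3 and 7 of 8 called higher by edgeR and 5 and 7 by DESeq2, and endothelial markers, with 3 and 5 of 6 by edgeR and 6 and 5 by DESeq2, moved too. The part of cell numbers in the complement values was not tested.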

How the data were processed

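Raw counts were deposited by the authors as 1 table of reads per gene with no normalization, from stranded mRNA libraries sequenced on a NextSeq 500. The methods name STAR on GRCm38 and counting by featureCounts on the reverse strand, whereas the submitters' processing notes name HTSeq 0.10.0 and FastQC 0.10.1, so the counter is not settled. Symbols and positions came from GENCODE M21 for 21939 of 21965 genes. Counts were fitted in R 4.3.3 with edgeR 4.0.16 (quasi-likelihood test, TMM, filterByExpr, 1 mean per group, all 12 libraries together), leaving 15046 genes. P-values were adjusted by Benjamini-Hochberg over all of them, and a gene was called at an adjusted p under 0.05. Fits with DESeq2 1.42.0, other scalings, filters and sample sets, a replicate block and each library left out were alternatives. CPM used TMM factors. Likeness used log2 CPM with a prior count of 2. The design text gives 3 mice per group, and p-values measure the spread between libraries, whose biological coefficient of variation was 0.24. On simulated data for ligated against naive WT tissue over 15046 genes, 52.3% of 2-fold and 94% of 4-fold changes were recovered and 3.97% of calls were false.

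The 9 genes, the other lists and the tests were chosen with earlier results of these data known. Named besides the 9 were Cybb and, per role list, up to 3 called genes with the largest log2 fold change, or the gene with the highest mean CPM where 0 were called. The values of 1 gene that this rule names are not reported here. Of the other marker lists, in ligated tissue of WT and of libraries labelled CybbKO, 0 of 9 epithelial, 0 of 4 adipocyte, 0 of 3 salivary, 0 of 6 muscle, 0 of 1 liver and 0 of 4 Y-linked genes tested were called by edgeR. DESeq2 called 1 epithelial and 1 salivary gene lower in libraries labelled CybbKO and the 1 liver gene lower in WT. At an unadjusted p under 0.05, edgeR had 1 liver gene lower in WT and, in libraries labelled CybbKO, 1 epithelial and 1 adipocyte gene higher and 1 epithelial and 1 salivary gene lower. Of 5 T and NK cell genes, edgeR called 0 and 1 higher and DESeq2 0 and 2, and of 4 B and plasma cell genes, both called 0 and 2 lower. Protein sequences were not used here.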

Additional observations from a re-analysis of the deposited data

How the results depend on the processing

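In WT, the 2 members called became 1 with a filter of a mean of at least 50 counts, where Cfb was no longer tested, and 1 when only the 6 libraries compared were fitted; leaving out 1 library gave 0 to 2. The 3 other complement genes called in WT became 5 with DESeq2, which added C1s1 and Itgam, and 1 with only the 6 libraries; leaving out 1 library gave 0 to 3. In libraries labelled CybbKO, leaving out 1 library gave 5 to 7 of the 8 members and 8 to 13 of the 13 other genes. With 1 library left out, log2 fold changes crossed 0 for C4b in WT (range -0.13 to 0.59 over 6 fits), and for Cfd (-1.05 to 3.13) and C8g (-0.0595 to 0.58) in libraries labelled CybbKO. They also did for Clu, Cd55, Cd59b and Susd4 in WT and for C2 (-0.34 to 0.48), Cd55 and Susd4 in libraries labelled CybbKO. None of these genes was called. In naive tissue between genotypes they crossed 0 for C3 (-0.00882 to 0.35), C4b (-0.0556 to 0.32), Cfp (-0.17 to 0.15) and C5ar1 (-0.57 to 0.29), none of them called. The cause was not tested. Whether the replicate numbers pair the samples is not known. Correlations of same-numbered deviations ran from -0.228 to 0.277, which cannot decide it, because differently numbered libraries were not compared. With the replicate number as a block, the members called were 2 in WT and 6 in libraries labelled CybbKO, where C3 (adjusted p = 0.0658 in edgeR) and Cfp (0.056) were not, and the other complement genes called were 3 and 11. Between genotypes and for the difference of responses, 0 members were called under every setting.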
